A study of Mus musculus with 18 samples.

Results

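The genes described here mark T and B lymphocytes: Cd3e, Cd3d, Cd3g, Cd4, Cd8a, Il7r, Cd79a, Cd79b and Ms4a1. They were chosen by name as a gauge of lymphocytes in heart cell preparations, and all 9 were found among the 19094 protein-coding genes of the deposited table. The series holds 18 libraries of poly(A) RNA from the hearts of 6 mice, all 16 months old. 3 mice were Bag3-P209L Tg+, carrying a transgene for a form of the co-chaperone BAG3 with a leucine in place of a proline, and 3 were age-matched Bag3-WT mice. Each mouse gave a cardiomyocyte preparation, sequenced as 2 libraries called rep1 and rep2, and a cardiac fibroblast preparation, sequenced as 1 library. No further agent or allele is named in the labels. The sources used here do not give the promoter of the transgene, its species of origin or the way the cells were isolated. Mice are numbered here in the order of the labels, as Tg mouse 1 to 3 and WT mouse 1 to 3. The code of each mouse contains an F (WT mouse 1 and Tg mouse 1 and 3) or an M (the remaining mice), letters that the labels do not explain. Tg mouse 1 and WT mouse 1 share the first element of their codes, and no other mice do.

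T cells read antigen with a receptor whose signal is passed on by the CD3 chains, encoded by Cd3e, Cd3d and Cd3g. CD4 and CD8 are coreceptors that bind the MHC molecule beside the T cell receptor and separate helper from cytotoxic T cells, although some dendritic cells also carry CD4 or CD8A. IL-7 receptor alpha, from Il7r, receives the survival signal of naive and memory T cells and of innate lymphoid cells. CD79A and CD79B form the signalling pair of the B cell receptor, and MS4A1 (CD20) is a surface protein of mature B cells. Working heart muscle holds few resident lymphocytes beside many macrophages, and blood left in the vessels brings in more. In RNA from a whole preparation, fewer lymphocytes and less RNA per lymphocyte cannot be told apart.

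The libraries gave uneven depth for such rare transcripts. Counts of the 13 mitochondrially encoded genes made up 51.7% to 85.5% of the summed cardiomyocyte counts and 16.7% to 74.2% of the fibroblast counts. The counts left for nuclear genes were 2261653 to 7793062 per mouse in cardiomyocytes and 11309883 to 15811137 in fibroblasts. Levels are therefore given as nuclear CPM, counts scaled to a nuclear total of 1000000. A total of 3 counts, taken as the limit that a count of 0 allows, stood for 0.385 to 1.33 nuclear CPM in a cardiomyocyte preparation and for 0.190 to 0.265 in a fibroblast preparation. These limits cover counting error only. Counts are estimates that need not be whole.

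The labels of the preparations were checked against defining markers. All 8 cardiomyocyte markers were higher in the cardiomyocyte libraries, led by Actn2 (log2 fold change, log2FC, 1.95), Myl2 (2.22) and Myl3 (1.92). Fibroblast markers were split. Of 8 tested, 5 had a log2FC below 0 and 3 above (median −0.30), with 1 called lower and 2 higher in the cardiomyocyte libraries. Their summed level, in which abundant genes weigh most, ran against the label. It was 1371 to 4686 nuclear CPM in libraries labelled fibroblast and 5486 to 19806 in libraries labelled cardiomyocyte. Collagen genes Col1a1 (log2FC 2.52) and Col1a2 (1.38) were higher in the cardiomyocyte libraries, and the fibroblast transcription factor gene Tcf21 (−0.98) was lower. Of the 13 macrophage and monocyte genes, 13 were lower in the cardiomyocyte libraries, with a summed level of 5810 to 16585 nuclear CPM in fibroblast and 1215 to 5517 in cardiomyocyte preparations. Bag3, the gene of the study, had a mean of 45.2 TMM-scaled CPM (SD 10.4, n = 3) in cardiomyocytes of Tg+ mice, against 54.4 (SD 36.5, n = 3) for Bag3-WT (edgeR adjusted p = 1.00), so its level does not check the genotype labels.

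Tg mouse 3 stood apart before any comparison. Its cardiomyocyte preparation held 62 counts of the Y-linked gene Ddx3y under the letter F, where the other mice with letter F held 0, while its fibroblast library held 0. Eif2s3y, also Y-linked, had 172 counts in its cardiomyocytes, but 24 and 19 in those of Tg mouse 1 and WT mouse 1. The fibroblasts of all 3 had 0, so smaller Y-linked counts also occurred in the other mice with letter F. Mice with letter M held 101 to 274 counts of Ddx3y and 59 to 190 of Eif2s3y in cardiomyocytes. Whether both preparations labelled Tg mouse 3 came from 1 animal was not tested, and the fits within mice take them as a pair from Tg mouse 3. The sum of 9 pan-leukocyte genes was 299 nuclear CPM in its cardiomyocytes against 1028 to 1654 in the other mice, and 1570 against 2956 to 4665 in fibroblasts. Erythroid genes reached 71.3 nuclear CPM in its cardiomyocytes and 161 in its fibroblasts, while no other mouse was below 1164 and 2477. The lymphocyte genes behaved alike. In cardiomyocytes Tg mouse 3 had the lowest level of 8 of the 9. For Ms4a1 this level was 0, as in Tg mouse 2 and WT mouse 3. In fibroblasts Tg mouse 3 had the lowest level of 7 of the 9. Where leaving out this mouse changed the sign or the call of a member between preparations or between genotypes, both values are given.

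All 9 genes were counted in every fibroblast library, at 332 to 2463 counts for the 9 together. The 12 cardiomyocyte libraries held 2 to 443 counts for the 9, and 7 of them had at least 1 member at 0. In rep1 of Tg mouse 3, 7 of the 9 members were at 0 and the others summed to 2 counts. Rep2 of the same mouse had 4 members at 0 and 22.04 counts. Summed over repeats, the 9 genes came to 8.78 nuclear CPM in the cardiomyocytes of Tg mouse 3 and to 37.1 to 84.8 in those of the other mice. Fibroblast preparations ran from 29.4 (Tg mouse 3) to 156 nuclear CPM (WT mouse 1).

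**Figure D1:**
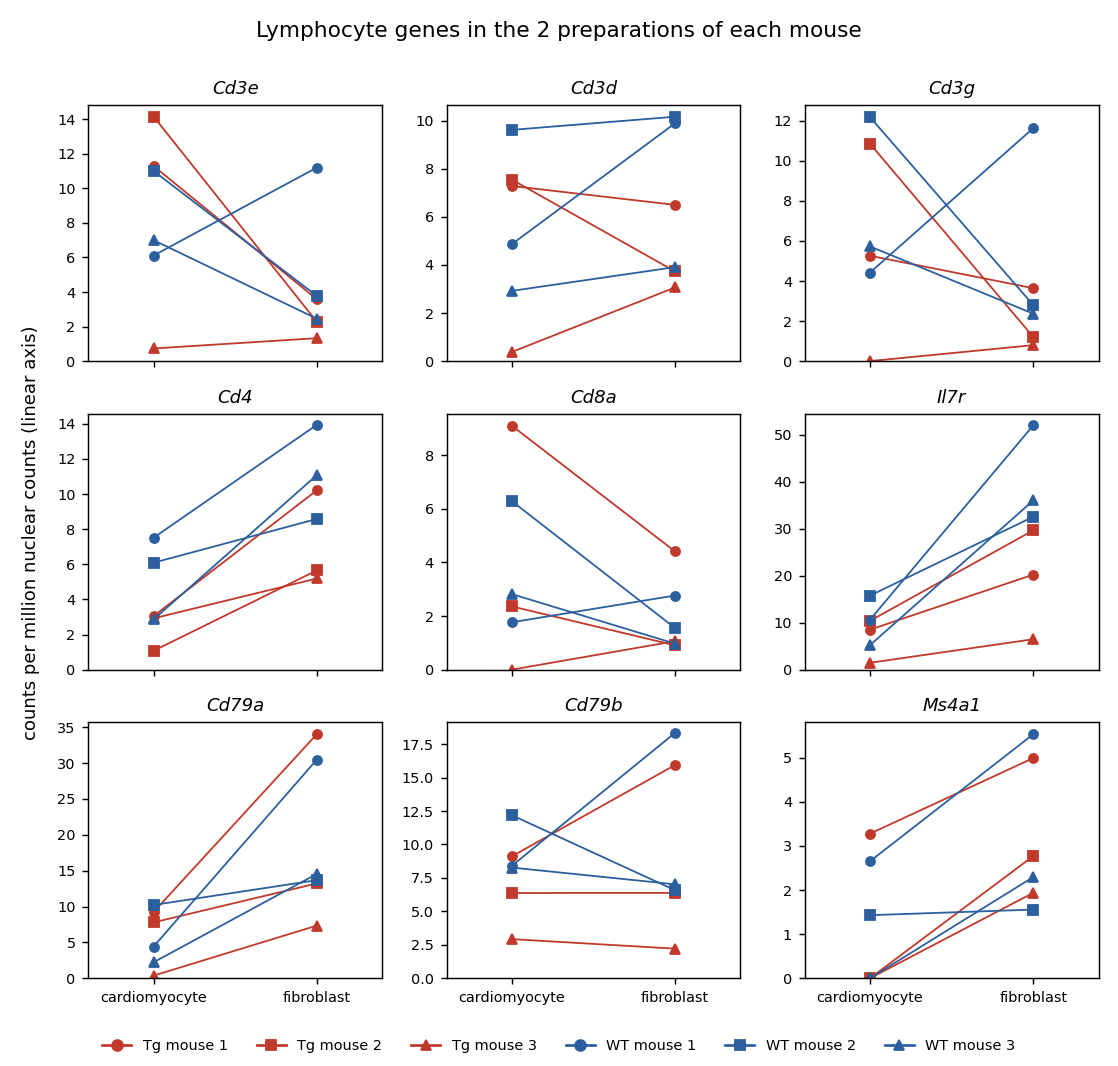
Level of each lymphocyte gene in nuclear CPM (y axis, linear, own scale per panel) in the cardiomyocyte and fibroblast preparation of each mouse; lines join the preparations of 1 mouse, red marks Tg+ and blue Bag3-WT. Cd4, Il7r, Cd79a and Ms4a1 rise from left to right in all 6 mice, Cd3e, Cd3g and Cd8a fall in 4 of 6, and Tg mouse 3 (red triangles) lies at or near the bottom of most panels.

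The CD3 chains come first among the T cell genes. Cd3e (ENSMUSG00000032093.7, GRCm38 chromosome 9, 44998740 to 45009627, minus strand), Cd3d (ENSMUSG00000032094.8, 44981786 to 44987339, plus strand) and Cd3g (ENSMUSG00000002033.14, 44969572 to 44980431, minus strand) lie within 40056 bp. Cd3g and Cd3d start 1355 bp apart and are read away from each other. Cd3e shares 135 exonic bases with the antisense gene Gm48719, and the sources used here do not say whether counting used strand. The sequence just before the start of each chain is shown because the 3 genes share this region, with E-boxes (CANNTG, the binding motif of E proteins of the lymphoid lineage) in capitals. The windows end where annotated transcripts begin and come from RefSeq on GRCm38.p6.
Cd3e, chr9:45009628-45009861, minus strand: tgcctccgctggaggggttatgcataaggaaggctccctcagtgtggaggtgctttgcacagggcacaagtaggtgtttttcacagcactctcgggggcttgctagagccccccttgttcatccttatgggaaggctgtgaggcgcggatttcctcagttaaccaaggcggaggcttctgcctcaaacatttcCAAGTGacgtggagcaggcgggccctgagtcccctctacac
Cd3d, chr9:44981536-44981785, plus strand: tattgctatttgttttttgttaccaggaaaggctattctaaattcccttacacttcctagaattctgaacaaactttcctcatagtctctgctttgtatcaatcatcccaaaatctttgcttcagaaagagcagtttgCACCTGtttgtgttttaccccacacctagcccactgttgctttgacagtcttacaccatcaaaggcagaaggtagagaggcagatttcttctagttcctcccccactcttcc
Cd3g, chr9:44980432-44980681, minus strand: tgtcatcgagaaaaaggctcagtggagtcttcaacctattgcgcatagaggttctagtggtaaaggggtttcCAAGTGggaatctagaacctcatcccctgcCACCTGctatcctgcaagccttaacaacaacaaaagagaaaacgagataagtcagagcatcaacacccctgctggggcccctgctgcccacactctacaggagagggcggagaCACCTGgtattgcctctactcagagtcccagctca
The Cd3e window held 1 E-box, the Cd3d window 1 and the Cd3g window 3. Of 32851 promoter windows of the same length, 63.8% (234 bases) and 66.2% (250 bases) held at least 1 on either strand. The ETS core GGAA, searched on both strands, occurred 4, 6 and 2 times, and 92.2% and 93.4% of all windows held it. The motifs can share a base where they adjoin, and a match describes the sequence only.

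Cd3e encodes the epsilon chain, present in every T cell receptor complex. In the fibroblast libraries it had 53, 33.8 and 15 counts in Tg mouse 1, 2 and 3 and 177, 59 and 29 in WT mouse 1, 2 and 3. In cardiomyocytes rep1 and rep2 held 11 and 77 counts in Tg mouse 1, 19 and 41 in Tg mouse 2 and 0 and 2 in Tg mouse 3. The Bag3-WT cardiomyocyte libraries had 7.83 and 6, 12 and 16, and 3 and 19 in WT mouse 1, 2 and 3. WT mouse 1 was thus by far the highest fibroblast library, and both cardiomyocyte repeats of Tg mouse 3 were nearly empty. Per nuclear counts, Cd3e was higher in the cardiomyocyte than in the fibroblast preparation of 4 mice and lower in WT mouse 1 and Tg mouse 3. Cardiomyocytes held 8.38 ± 4.78 and fibroblasts 4.10 ± 3.59 nuclear CPM (SD, n = 6).

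Cd3d, the delta chain, had 96.2, 55.6 and 34.6 counts in the fibroblast libraries of Tg mouse 1, 2 and 3 and 156, 159 and 46.2 in WT mouse 1, 2 and 3. Rep1 and rep2 of the cardiomyocytes held 6 and 50.8, 16 and 16, and 0 and 1.03 in the Tg+ mice. In the Bag3-WT mice they held 4 and 7, 6 and 18.5, and 2 and 7.18. Levels of the preparations overlapped widely, at 5.44 ± 3.40 in cardiomyocytes and 6.21 ± 3.18 nuclear CPM in fibroblasts. Cd3g, the gamma chain, had 53.9, 18.0 and 9 counts in Tg+ and 184, 43.8 and 28 in Bag3-WT fibroblast libraries. Its cardiomyocyte repeats held 7 and 34, 17 and 29, and 0 and 0 in Tg+ mice. In Bag3-WT mice they held 3 and 7, 13 and 18, and 4 and 14. Tg mouse 3 was the only cardiomyocyte preparation with no Cd3g count, which allows up to 1.10 nuclear CPM.

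None of the CD3 chains passed the test between preparations. Fitted within mice (edgeR quasi-likelihood test, Benjamini-Hochberg adjusted p over 13891 genes), the log2FC of cardiomyocyte over fibroblast libraries was 0.68 for Cd3e (SE 0.48, adjusted p = 0.273). It was −0.76 for Cd3d (SE 0.41, adjusted p = 0.158) and 0.45 for Cd3g (SE 0.65, adjusted p = 0.597). The signs of Cd3e and Cd3g depended on the scaling. With library size alone, which lets the mitochondrial counts lower all other genes and shifts the median of all genes by −0.95, Cd3e was −0.25 and Cd3g −0.47. Cd3g was also −0.04 without Tg mouse 2. Summed over the 3 chains, levels ran from 1.11 (Tg mouse 3) to 32.8 nuclear CPM (WT mouse 2) in cardiomyocytes and from 5.18 (Tg mouse 3) to 32.7 (WT mouse 1) in fibroblasts.

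Of the coreceptor genes, Cd4 was lower in the cardiomyocyte libraries and Cd8a did not pass the test. Cd4 (ENSMUSG00000023274.14, chromosome 6, 124864692 to 124888221, minus strand) had 151, 84.2 and 58.7 counts in Tg+ and 221, 134 and 131 in Bag3-WT fibroblast libraries. Its cardiomyocyte repeats held 1 and 22.8, 0 and 4.56, and 1 and 7 counts in Tg+ mice. In Bag3-WT mice the repeats held 6 and 11, 8 and 7.50, and 2 and 7. All 6 mice had less Cd4 in cardiomyocytes than in fibroblasts, at 3.92 ± 2.39 against 9.11 ± 3.35 nuclear CPM. The log2FC was −1.73 (SE 0.37, edgeR adjusted p = 0.00314), and it stayed past the threshold in all 16 alternative fits, where it ran from −2.62 to −1.32. Dendritic cell genes, which mark other cells that can carry CD4, were lower in 4 of 6 in the same libraries, and their part in the Cd4 counts was not tested.

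Cd8a (ENSMUSG00000053977.13, chromosome 6, 71373427 to 71379173, plus strand) had 65.3, 13.5 and 12 counts in Tg+ and 43.7, 24.3 and 11.5 in Bag3-WT fibroblast libraries. Cardiomyocyte repeats held 11.6 and 59.4, 3 and 7, and 0 and 0 in Tg+ mice. Bag3-WT mice had 2 and 2, 4 and 12, and 0 and 8.86. Tg mouse 1 was the highest in both preparations, with 9.10 nuclear CPM in cardiomyocytes and 4.41 in fibroblasts. The log2FC between preparations was 0.32 (SE 0.62, edgeR adjusted p = 0.697), and −0.57 with library size alone. Cd8b1, which encodes the beta chain that pairs with CD8A on cytotoxic T cells, stood at 0.76 (SE 0.72, adjusted p = 0.416).

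Il7r (ENSMUSG00000003882.5, chromosome 15, 9505788 to 9530176, minus strand) was lower in the cardiomyocytes of all 6 mice, by the smallest p of the 9 genes. Fibroblast libraries held 299, 441 and 73.2 counts in Tg+ and 822, 509 and 426 in Bag3-WT mice. Cardiomyocyte repeats held 13 and 53.3, 11.0 and 33.0, and 0 and 4.00 in Tg+ mice, and 4.00 and 20.04, 12.0 and 28.1, and 2 and 14.4 in Bag3-WT mice. The means were 8.66 ± 4.92 nuclear CPM in cardiomyocytes and 29.5 ± 15.3 in fibroblasts, and the log2FC was −2.23 (SE 0.27, edgeR adjusted p = 8.8e-05). All 16 alternatives kept it lower and past the threshold, between −3.14 and −1.79.

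Partners of the IL-7 receptor and other cues for lymphocytes were read from a list of 14 genes, of which 13 were tested. Il2rg, the common gamma chain that pairs with IL7R, was lower in cardiomyocyte libraries (log2FC −1.78, SE 0.23, edgeR adjusted p = 1.3e-04). Crlf2, whose product pairs with IL7R to receive the cytokine TSLP, was lower as well (−2.34, SE 0.18, adjusted p = 3.6e-06), as was Cxcl13, a chemokine that attracts B cells (−1.97, SE 0.34, adjusted p = 8.6e-04). Tslp (−3.19) and Il15 (−1.18), a cytokine of NK and memory T cells, were the other 2 of 5 lower genes. Cxcl12, the chemokine that holds lymphocytes and their precursors in tissues, was the only 1 of the list that was higher (0.81). Il7, the ligand itself, stood at −0.30 (adjusted p = 0.739).

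Cd79a and Cd79b encode a pair of chains that work as 1 unit, yet their counts parted between the preparations. Cd79a (ENSMUSG00000003379.7, chromosome 7, 24897381 to 24902197, plus strand) had 504, 197 and 83 counts in Tg+ and 482, 214 and 172 in Bag3-WT fibroblast libraries. Cardiomyocyte repeats held 12 and 60, 11 and 22, and 1 and 0 in Tg+ mice. Bag3-WT mice had 3 and 7, 11 and 15, and 0 and 7. Every mouse had less in cardiomyocytes, at 5.71 ± 3.99 against 18.9 ± 10.7 nuclear CPM. The log2FC was −2.29 (SE 0.39, edgeR adjusted p = 8.2e-04) and ran from −3.20 to −1.85 over 16 alternatives, all past the threshold. The sequence before the Cd79a start is shown for comparison with the CD3 chains, again with the E-box in capitals; it held 1 E-box and 2 ETS cores, and 43.8% and 77.1% of windows of 134 bases held at least 1.
Cd79a, chr7:24897247-24897380, plus strand: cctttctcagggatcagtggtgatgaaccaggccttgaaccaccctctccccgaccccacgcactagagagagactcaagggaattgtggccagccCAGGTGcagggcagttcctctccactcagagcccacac

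Cd79b (ENSMUSG00000040592.11, chromosome 11, 106311341 to 106314762, minus strand) had 236, 95 and 25 counts in Tg+ and 290, 103 and 83 in Bag3-WT fibroblast libraries. The cardiomyocyte repeats held 8 and 63, 9 and 18, and 0 and 8 in Tg+ mice. Bag3-WT mice had 10 and 9, 16 and 15, and 5 and 21. Levels did not part, with 7.88 ± 3.08 nuclear CPM in cardiomyocytes and 9.41 ± 6.28 in fibroblasts. The log2FC was −0.51 (SE 0.34, edgeR adjusted p = 0.241).

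Ms4a1 (ENSMUSG00000024673.9, chromosome 19, 11249675 to 11266241, minus strand) was the rarest member in cardiomyocytes. Its fibroblast libraries held 73.9, 41.3 and 21.9 counts in Tg+ and 87.5, 24.4 and 27.1 in Bag3-WT mice. Cardiomyocyte repeats held 3 and 22.5 in Tg mouse 1, 1 and 5 in WT mouse 1 and 0 and 3.64 in WT mouse 2. The other 3 mice, Tg mouse 2, Tg mouse 3 and WT mouse 3, had no count in either repeat, which allows up to 0.708, 1.10 and 0.955 nuclear CPM. The log2FC was −2.26 (SE 0.81, edgeR adjusted p = 0.0416), a value that depends on the prior count where mice are at 0. It lost the call when Tg mouse 2 (edgeR adjusted p = 0.0969, the highest over its 16 alternatives), Tg mouse 3 (log2FC −1.98, adjusted p = 0.0531), WT mouse 1 or WT mouse 3 was left out. It also lost it with rep2 libraries only, with library size alone after leaving out mitochondrial genes, and without the mouse as a block (log2FC −1.70, adjusted p = 0.0857).

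In all, 4 of 9 members (Cd4, Il7r, Cd79a, Ms4a1) were lower in cardiomyocyte libraries and 0 were higher. Of all 13891 genes tested, 24.9% were lower and 19.7% higher, 44.6% in either direction. The median log2FC of the 9 was −0.76, that of all genes tested −0.04. Without Tg mouse 3, or with any other mouse left out, 3 to 4 members were called. With library size alone 6 were called, Cd3d (−1.67) and Cd79b (−1.39) joining the 4. With mitochondrial genes left out and library size alone, which shifts the median of all genes by 0.39, Ms4a1 was lost and 3 were called, as without the mouse as a block.

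Longer lists place the members among their kind. Of 24 further T cell genes, 19 were tested, 7 were lower and 0 higher, beside 24.9% lower among all genes tested. The lymph node homing receptor gene Ccr7 (log2FC −4.09, SE 0.31, edgeR adjusted p = 3.6e-06), the costimulator gene Icos (−3.68, SE 0.62, adjusted p = 8.5e-04) and Cd6, an adhesion receptor gene (−2.88, SE 0.70, adjusted p = 0.00672), led them. Ccr7 is also carried by dendritic cells, whose genes were lower in 4 of 6. Signalling genes close to the CD3 chains were split. Cd247, the zeta chain (1.16, edgeR adjusted p = 0.112), Lat (0.52) and Lck (−0.44) did not pass. Zap70, the kinase that docks on the CD3 chains, was lower (−1.44, adjusted p = 0.0337).

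Of the 15 B cell genes, 13 were tested, 11 were lower and 0 higher, with a median log2FC of −2.04. The difference between the T cell and B cell counts was not tested. The adaptor gene Blnk (−3.83, SE 0.28, edgeR adjusted p = 3.1e-06), the tetraspanin gene Cd37 (−2.04, SE 0.22, adjusted p = 3.8e-05) and the transcription factor gene Spib (−2.90, SE 0.37, adjusted p = 1.4e-04) had the lowest p. Myeloid cells also use Blnk and Cd37. Cd22 (−2.95) and Pax5 (−1.65), which are closer to B cells alone, were among the 11. Plasma cell genes had 0 calls in 4 tested, with Mzb1, an antibody chaperone gene, lowest in p (−1.58, adjusted p = 0.131). NK and innate lymphoid genes had 3 lower and 1 higher of 11 tested: Il2rb (−1.94), Klrk1 (−1.70) and Eomes (−2.45) were lower.

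Lists of other cell types were read in the same fit. All 9 pan-leukocyte genes were lower (median log2FC −2.15), led by Itgb2 (−2.88), Ptprc (−2.66) and Lcp1 (−2.35). Macrophage genes had a median of −2.17 and included Cd14 (−4.72), Cd68 (−3.46) and Itgam (−2.41). Of the dendritic cell genes, 4 of 6 were lower, among them Xcr1 (−3.50), Zbtb46 (−0.99) and Flt3 (−1.80). Csf3r (−3.29) was the 1 of 3 neutrophil genes called, and Ly6g had no count in cardiomyocytes. All 5 erythroid genes were lower, such as Hba-a2 (−1.71), Hba-a1 (−1.68) and Alas2 (−1.43), and 2 of 6 endothelial genes, Cldn5 (−2.39) and Tie1 (−0.81). Their part in the lymphocyte results was not tested.

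**Figure D2:**
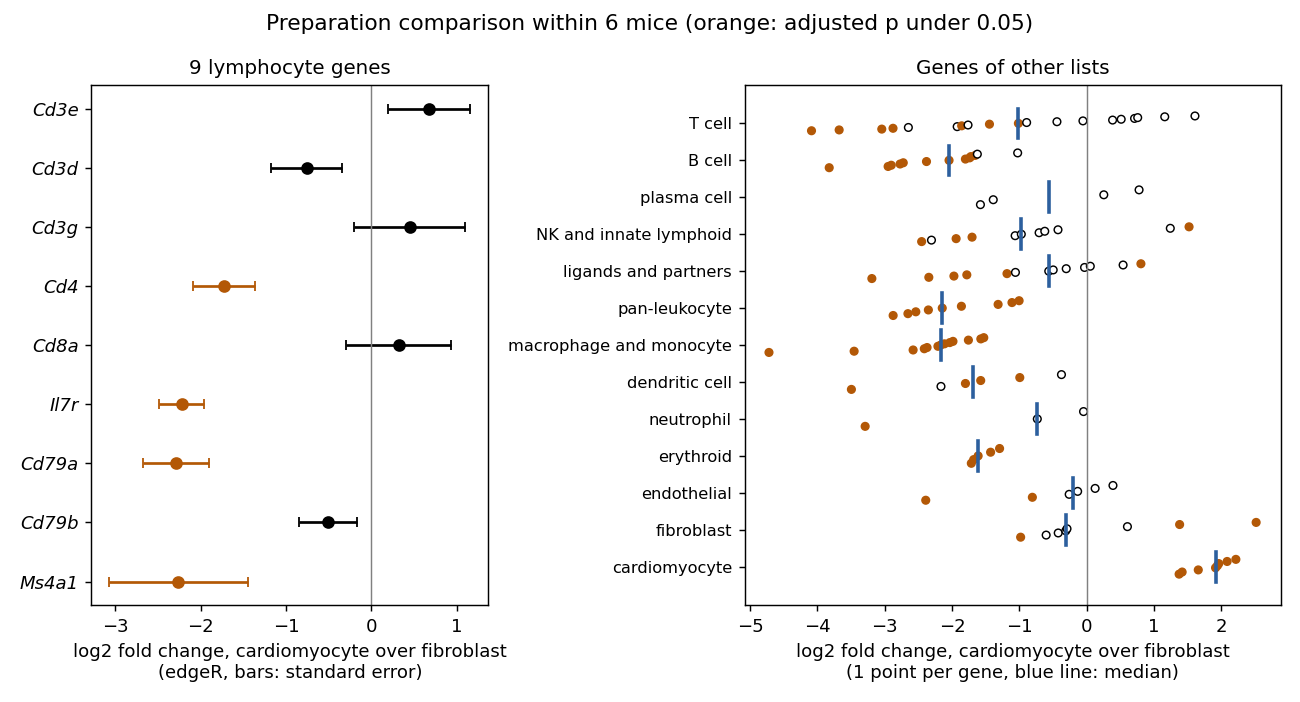
Left: log2 fold change of cardiomyocyte over fibroblast libraries for the 9 lymphocyte genes (x axis; bars are standard errors, 6 mice). Right: the same for the genes tested in 13 further lists (1 point per gene, blue line the median); orange marks genes past adjusted p 0.05. Cd3e, Cd3g and Cd8a lie right of 0 without passing, while all 13 B cell genes tested lie left of it.

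Ratios of counts within a preparation do not depend on library scaling, and 17 were computed after the values had been seen, as a description. Tg mouse 3 is left out of them, since its cardiomyocytes had 3 counts or fewer of 6 members. Per count of Ptprc, which encodes the pan-leukocyte protein CD45, Cd3e stood at 0.0954 to 0.181 in cardiomyocytes and 0.00770 to 0.0273 in fibroblasts. It was higher in the cardiomyocytes of 5 of 5 mice, and the same held for Cd3d, Cd3g, Cd8a and Cd79b. Cd4 and Il7r per Ptprc were higher in 4 of 5, and Cd79a and Ms4a1 in 3 of 5. Ptprc was itself lower in cardiomyocyte libraries (log2FC −2.66), against a median of −0.04 for all genes tested. A gene without change between preparations would thus stand higher per Ptprc there. The share of all genes that did so was not computed, so these ratios are not read as a trait of the members.

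Counts of Cd79a and of the summed B cell members shifted against those of the CD3 chains. The 9 members did not divide into T against B cell genes between preparations. T cell members Cd4 (log2FC −1.73) and Il7r (−2.23) were lower like Cd79a (−2.29), while Cd79b (−0.51) and Cd3d (−0.76) did not pass. Counts of Cd79a per Cd3e were 0.318 to 0.929 in cardiomyocytes and 2.72 to 9.51 in fibroblasts, with no overlap. The summed B cell members stood at 1.30 to 4.01 per summed CD3 count in fibroblasts. In cardiomyocytes Tg mouse 1 had 0.907, Tg mouse 2 0.435, WT mouse 1 1.00, WT mouse 2 0.726 and WT mouse 3 0.671, while Tg mouse 3 had 2.97, from 9 B cell and 3.03 CD3 counts. The ratio of Cd79a to Cd3e was lower in the cardiomyocytes of 5 of 5 mice.

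Ratios between chains of the same complex were also described. The share of all gene pairs without overlap was not computed. Cd79b per Cd79a was 0.468 to 0.602 in fibroblasts and 0.818 to 3.71 in cardiomyocytes, without overlap. Cd3d per Cd3e was 0.883 to 2.70 in fibroblasts and 0.417 to 0.874 in cardiomyocytes, so the ranges nearly touched. The 0.883 came from 156 and 177 counts in WT mouse 1, the 0.874 from 24.5 and 28 in WT mouse 2. This narrow gap is not read as a separation. Cd3g per Cd3e overlapped, at 0.530 to 1.04 and 0.466 to 1.11. Il7r per Cd3e was 4.64 to 14.7 in fibroblasts against 0.734 to 1.74 in cardiomyocytes. Counts of Cd8a per Cd4 were 0.0876 to 0.432 in fibroblasts and 0.235 to 2.98 in cardiomyocytes.

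**Figure D3:**
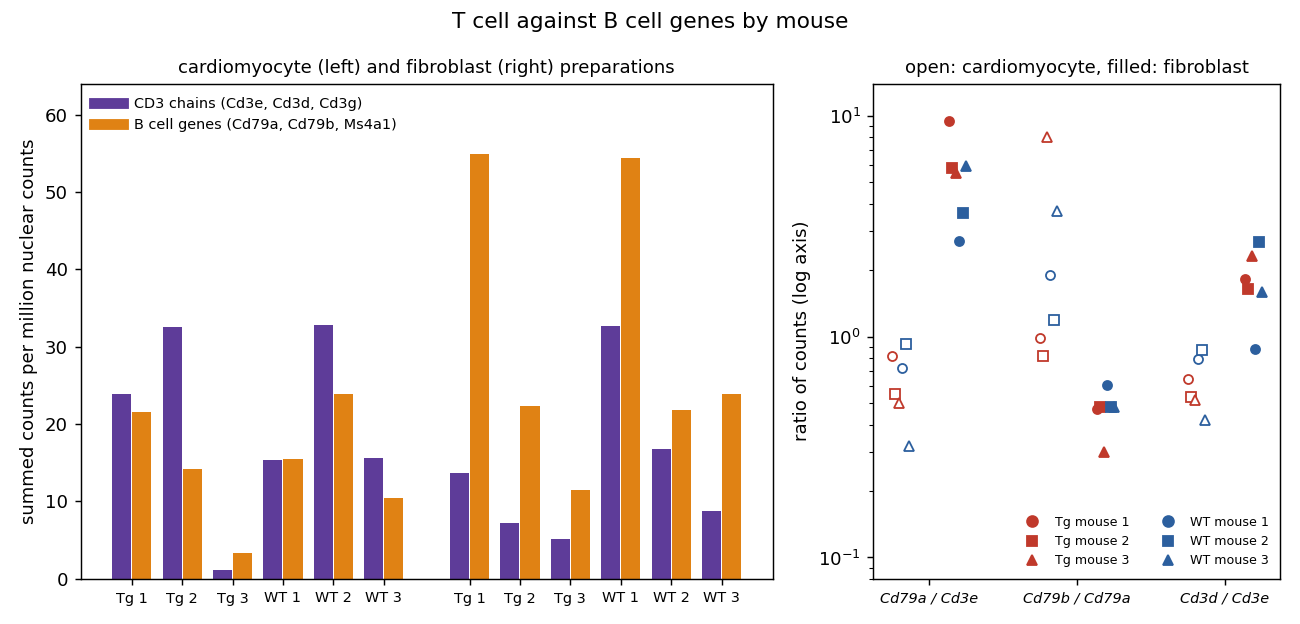
Left: summed level of the CD3 chains (purple) and of the B cell genes (orange) in nuclear CPM for each mouse, bars from 0. Right: ratio of counts of 2 genes in each preparation (log axis), open symbols for cardiomyocytes and filled for fibroblasts. B cell bars exceed CD3 bars in all 6 fibroblast preparations. Open and filled symbols lie apart in each of the 3 ratios, but nearly touch for Cd3d / Cd3e. Tg mouse 3 (open red triangles) rests on few counts.

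Levels between the genes were compared per kilobase of the longest coding transcript, on the nuclear CPM scale. In fibroblasts the order of median levels was Cd79a (9.68 CPM per kb), Il7r (8.78), Cd79b (4.75), Cd3d (3.22), Cd4 (3.02), Cd3g (2.53), Cd3e (2.06), Ms4a1 (0.823) and Cd8a (0.418). Within mice, Cd3e exceeded Ms4a1 and Ms4a1 exceeded Cd8a in 6 of 6. All other neighbours in the fibroblast order changed places in 1 or 2 mice, and their differences did not exceed the spread between mice. In cardiomyocytes the order was Cd3e (6.16), Cd79b (5.83), Cd3g (5.37), Cd79a (4.19), Cd3d (3.76), Il7r (2.67), Cd4 (0.962), Cd8a (0.828) and Ms4a1 (0.232), and no neighbours kept their order in all 6 mice. The cardiomyocyte order headed by Cd3e holds for medians and the longest transcript. Within mice, Cd3e exceeded Cd79b in only 2 of 6. With the mean transcript length Cd3g came first there (7.66), ahead of Cd3d, Cd79b and Cd3e, and Cd3d moved to 5.47 in fibroblasts and 6.38 in cardiomyocytes, as its annotated coding transcripts are 1617 and 286 bases long.

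The second comparison asked whether Tg+ and Bag3-WT mice differ, in each preparation, with 3 mice against 3. In fibroblasts no member passed: 0 of 9 at adjusted p under 0.05, beside 0% of all 13571 genes. At an unadjusted p under 0.05 there were 690 genes (5.08%) and 1 member, Cd4. DESeq2 called 6 genes and limma voom 0, none of them members. The CD3 chains, Cd4 and Il7r were lower on average in Tg+ fibroblast libraries, but each genotype's values reached into the other's for all but Il7r.

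Il7r in fibroblasts was the only member whose genotypes did not overlap. The share of all genes without overlap was not computed, so this is not read as a trait of Il7r. Its exact permutation test gave p = 0.1, the smallest possible with 3 against 3 mice. Il7r stood at 20.2, 29.6 and 6.47 nuclear CPM in Tg+ and at 51.97, 32.5 and 35.995 in Bag3-WT fibroblasts (log2FC −1.09, SE 0.51, edgeR adjusted p = 0.768). The log2FC was −0.65 without Tg mouse 3 and −1.69 without Tg mouse 2. Cd4 was 10.2, 5.65 and 5.19 against 13.9, 8.58 and 11.1 (log2FC −0.72, SE 0.31, unadjusted p = 0.0491, edgeR adjusted p = 0.768). Tg mouse 1 lay above WT mouse 2, so the groups overlapped.

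In fibroblast libraries WT mouse 1 was the highest for 6 of 9 members, among them Cd3e and Cd3g. This library was unlike the others: mitochondrial counts made up 74.2% of it, against 16.7% to 39.2% in the other fibroblast libraries. Among fibroblast libraries it also had the lowest summed fibroblast markers (1371 nuclear CPM) and the highest summed cardiomyocyte markers (2188). The part of these traits in the genotype estimates was not tested. Cd3e was 3.58, 2.27 and 1.33 nuclear CPM in Tg+ and 11.2, 3.77 and 2.45 in Bag3-WT mice (log2FC −1.30, SE 0.61, edgeR adjusted p = 0.768). Cd3g was 3.64, 1.21 and 0.796 against 11.6, 2.80 and 2.37 (log2FC −1.60, SE 0.76, adjusted p = 0.768). Without WT mouse 1 these came to −0.42 and −0.51. Cd3d, at 6.50, 3.73 and 3.06 against 9.89, 10.2 and 3.91, had a log2FC of −0.89 (SE 0.43), and −0.72 without WT mouse 1. Macrophage genes were below 0 in 13 of 13 and pan-leukocyte genes in 9 of 9 in this contrast, with medians of −0.73 and −0.64 and no gene past the threshold; their part was not tested.

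The B cell members and Cd8a had smaller estimates whose signs depended on single mice. Cd79a in fibroblasts was 34.0, 13.2 and 7.34 nuclear CPM in Tg+ and 30.5, 13.7 and 14.5 in Bag3-WT mice (log2FC −0.15, SE 0.55). Cd79b (log2FC −0.41, SE 0.67), Ms4a1 (0.02, SE 0.55) and Cd8a (0.22, SE 0.67) had adjusted p from 0.895 to 0.993. Tg mouse 1 and WT mouse 1 were the 2 highest mice for all 3 B cell genes, so the genotypes interleaved; these are the mice that share a code element. Without Tg mouse 3, Cd79a (0.25) and Cd79b (0.049) changed sign. Without Tg mouse 1 all 4 estimates were below 0, at −0.89 for Cd79a, −1.25 for Cd79b, −0.38 for Ms4a1 and −0.82 for Cd8a. The difference between these genes and the CD3 chains was not tested.

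In cardiomyocytes 8 members could be tested and 0 passed, beside 0% of 12439 genes. At an unadjusted p under 0.05 there were 89 genes (0.715%) and 0 members, and DESeq2 called 3 genes and limma voom 0, none of them members. The spread within Tg+ was wide, with Tg mouse 3 nearly empty. Cd3e, for example, was 11.3, 14.2 and 0.731 nuclear CPM in Tg+ and 6.11, 11.0 and 7.00 in Bag3-WT cardiomyocytes (log2FC 0.08, SE 0.84). Cd4 had the lowest p, at 3.05, 1.08 and 2.92 against 7.52, 6.09 and 2.86 (log2FC −1.17, SE 0.79, unadjusted p = 0.177, edgeR adjusted p = 1.00). The other members ran from −0.64 (Cd79b, Il7r) to 0.10 (Cd8a), with Cd3d at −0.17, Cd3g at −0.49 and Cd79a at 0.05.

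Ms4a1 had too few counts for that fit. Its cardiomyocyte levels were 3.28, 0 and 0 in Tg+ and 2.65, 1.43 and 0 in Bag3-WT mice (exact permutation test on log2(nuclear CPM + 0.5), two-sided p = 1, 3 against 3, where the smallest possible p is 0.1). Without Tg mouse 3, Cd3d and Cd3g in cardiomyocytes changed sign, to 0.33 and 0.05. The SEs of this fit were 0.59 to 1.18 on the log2 scale, and differences of that size were not detectable at this depth and number of mice.

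**Figure D4:**
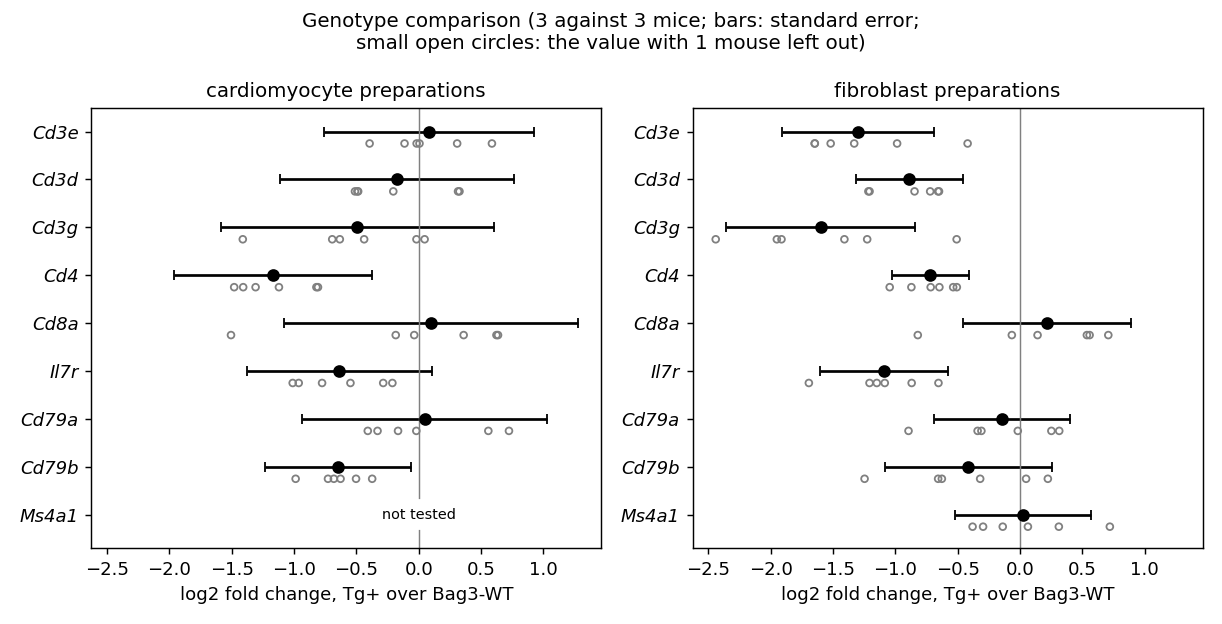
Log2 fold change of Tg+ over Bag3-WT mice for each lymphocyte gene (x axis) in cardiomyocyte (left) and fibroblast (right) preparations; black points and bars give the fit and its standard error, small open circles the value with 1 mouse left out. In fibroblasts the CD3 chains, Cd4 and Il7r stay left of 0 whichever mouse is left out; in cardiomyocytes the circles of Cd3e, Cd3d, Cd3g, Cd8a and Cd79a lie on both sides of 0.

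The genotype effect was compared between preparations as an interaction. 0 of 9 members passed, beside 0% of 13891 genes. At an unadjusted p under 0.05 there were 124 genes (0.893%) and 0 members, and DESeq2 called 1 gene and limma voom 0, none of them members. Estimates ran from −1.11 (Ms4a1, SE 1.80) to 0.73 (Cd3e, SE 1.00), with adjusted p = 1.00 by edgeR throughout. A genotype effect on these genes that is particular to a preparation was not shown.

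The genes whose levels ran most like the lymphocyte members were found by Pearson correlation of log2 CPM (TMM-scaled, prior count 2) over the 12 preparations, centred within each kind of preparation, among 8865 genes of at least 5 CPM on average. These correlations describe 12 columns that share mice and depth. One of them, Tg mouse 3 cardiomyocytes, held only 3.03 CD3 and 9 B cell counts. Correlations without this mouse were not computed, and its part in them was not tested. Nearest to the summed CD3 chains was Il16 (r = 0.963), the gene of a cytokine made by T cells, which held 9.56 CPM on average. Upk1b (0.960), Cnp (0.956), Tmem151a (0.951) and Fmod (0.950) followed, the last an extracellular matrix gene. Nearest to the summed B cell members were Tmem108 (0.945), Arrb1 (0.939), Satb1 (0.937), a chromatin organizer gene of lymphocytes, Espn (0.936) and Sorl1 (0.930).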

How the data were processed

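The authors deposited expected counts, estimated per gene and not normalized, and a normalized signal for the same 19094 protein-coding genes in 18 libraries. Per the submitters' processing notes, kallisto 0.44.0, DESeq2 1.18.1, R 3.4.4 and GRCm38.p6 were used, with no role or order given. The sources used here name no annotation, no filter and no way of summing transcripts per gene. The deposited normalized signal divides the counts by a factor that varies between genes and libraries, so it was only described.

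Expected counts of the rep1 and rep2 libraries of a mouse were summed and rounded, which left 12 columns with the mouse as replicate. The labels state an additional round of sequencing for cardiomyocytes, without tying it to rep1 or rep2. Nuclear CPM leave out the 13 mitochondrially encoded genes. Genes were kept by filterByExpr and scaled by TMM, and robust quasi-likelihood fits (glmQLFit, glmQLFTest; edgeR 4.0.16, R 4.3.3) gave two-sided p-values, called at adjusted p < 0.05 over all genes tested, with mouse as a block between preparations. The SE is the log2 fold change divided by the root of the F value. Exact permutation tests used log2(nuclear CPM + 0.5). DESeq2 1.42.0, limma 3.58.1 voom, other scalings, filters, repeats and leaving out each mouse were alternatives. The fitting was tested on simulated data.

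Positions came from GENCODE M21 on GRCm38 and upstream sequences from RefSeq on GRCm38.p6. 5 of the 9 members have such a sequence here. The members and all gene lists were chosen with earlier results of these data known. Besides the members and Bag3, the rule named up to 3 genes with the lowest p per list of other cell types, or 1 where none passed; Cd8b1, Cd247, Lat, Lck, Zap70, Cd22, Pax5, Eomes, Tslp, Il15, Cxcl12, Il7, Ly6g, Ddx3y and Eif2s3y were added after their values were seen. 131 genes in 13 lists were used, and 130 were in the table. Single values of a few list genes are not reported here.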

Additional observations from a re-analysis of the deposited data

How the results depend on the processing

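The counts of members called kept within 1.5 times the main count in all alternatives: 3 to 6 between preparations and 0 for genotype and interaction. With 1 mouse left out the counts ran from 3 to 4 between preparations and were 0 elsewhere. The replicate block, a limma voom fit of single cardiomyocyte libraries with the mouse as random block (correlation of repeats 0.743), also called 0 members by genotype. In it Cd3d was 0.40 and Cd79b 0.22, both of the other sign. The numbers rep1 and rep2 repeat within a mouse and pair no mice across genotypes.

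By genotype in fibroblasts Cd3e, Cd3d, Cd3g, Cd4 and Il7r kept their sign in all 14 alternatives, as did Cd4 in cardiomyocytes in all 12 that tested it, and Cd3d and Cd79b between preparations in all 16. Other members that did not pass changed sign in at least 1. Library size alone shifts the median of all genes by −0.95 between preparations, 0.84 by genotype in cardiomyocytes and 0.36 in fibroblasts. With it, Cd3e (−0.25), Cd3g (−0.47) and Cd8a (−0.57) turned between preparations. By genotype in cardiomyocytes Cd3d (0.94), Cd3g (0.41), Il7r (0.44) and Cd79b (0.37) turned, and in fibroblasts Cd79a (0.40) and Cd79b (0.22). In limma voom Cd3e (−0.012) and Cd8a (−0.18) turned by genotype in cardiomyocytes. With the letter F or M as a term, Cd8a (−0.19) and Ms4a1 (−0.090) turned in fibroblasts. The cause was not tested.

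With 1 mouse left out, Cd3g ran from −0.036 to 0.90 between preparations. By genotype in cardiomyocytes Cd3e ran from −0.39 to 0.59, Cd3d from −0.51 to 0.33, Cd3g from −1.41 to 0.047, Cd8a from −1.51 to 0.64 and Cd79a from −0.41 to 0.72. In fibroblasts Cd79a ran from −0.89 to 0.31, Cd79b from −1.25 to 0.22, Cd8a from −0.82 to 0.71 and Ms4a1 from −0.38 to 0.72. Fewer members could be tested by genotype in cardiomyocytes with rep1 alone (1) or rep2 alone (6). Pseudocounts of 1 and 0.1 CPM changed no side of the threshold in the exact tests. In cardiomyocyte preparations 3 counts stood for up to 1.33 nuclear CPM, and in fibroblasts for up to 0.265.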

Other observations

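The normalized signal that the authors deposited was not used in any test, since its scaling differs between genes and libraries. In it the median over libraries of Cd3e was 25.4 in cardiomyocytes and 11.1 in fibroblasts. Cd79a had medians of 15.4 and 54.9 and Il7r of 21.5 and 124. The order of the preparations was thus the same for these 3 genes as in nuclear CPM. It was not for Cd3d (15.3 in cardiomyocytes and 18.2 in fibroblasts) and Cd79b (19.9 and 25.7). Their medians in nuclear CPM over mice were higher in cardiomyocytes, at 6.07 against 5.20 and 8.34 against 6.80. The remaining members had the same order on both scales.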
